A study of Mus musculus with 45 samples.

Results

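The brush border hydrolases and peptidases are 10 genes, Lct, Sis, Mgam, Treh, Anpep, Dpp4, Enpep, Mep1a, Mep1b and Alpi, taken by name from the 52636 genes measured in mouse intestinal stem cells and in organoids. All 10 were found in both tables, once each. They were taken by name and not by a rule on their values, but with earlier results of these data known. They are described across stage, gut region, Lgr5 genotype, Rspondin ligand and Rspondin dose.

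The brush border is the carpet of microvilli on the surface that enterocytes, the absorptive cells of the small intestine, turn to the gut lumen. Enzymes anchored in its membrane finish digestion there: disaccharidases split sugars, peptidases trim peptides to amino acids, and a phosphatase removes phosphate from lipids and nucleotides. The disaccharidases are known for a switch around weaning in rodents, when milk sugar gives way to sucrose and starch, and the whole group is used as a sign of enterocyte differentiation, which lies opposite to the stem cell state that Wnt and Rspondin signals maintain.

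Sorted cells came from 2 mouse lines. In the Lgr5-DTReGFP line, in which the reporter is knocked into Lgr5 and disrupts it, eGFP+ cells were sorted from whole small intestine of heterozygous (HE) and homozygous null (KO) embryos at E16.5 (2 pools each, of 7 and 8 HE and 2 and 6 KO embryos from litters 85 and 97), from 2 HE embryos at E18.5, and from duodenum and ileum of 2 HE adults aged 2 months. In the Lgr5-Cre line, recombined eGFP+/RFP+ cells of the ileum were sorted at 2 months, 48 h after 2 mg of tamoxifen, from mice labelled HE (Lgr5-Cre/+, n = 2) or conditional knockout (cKO, Lgr5-Cre/flox, n = 3). The 30 organoid libraries came from E17.5 small intestine of 3 wild-type (WT) and 2 KO embryos of the Lgr5-DTReGFP line, 1 culture per embryo at passage 4, each grown with mouse Rspondin 1, 2 or 3 (Rspo1, Rspo2, Rspo3) at 100 or 5 ng/ml in a medium that also held EGF and noggin. Every sorted library thus carries at least 1 altered Lgr5 allele. Cells were sorted by a reporter placed in Lgr5, whereas organoids were taken whole. Before sorting, embryonic small intestine was dissociated as such, whereas in adults crypts were isolated first. The sort did not exclude RNA of other cells: genes of blood summed to 1058 and 1176 CPM in E16.5 HE.

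Values are in CPM, the reads counted on a gene scaled to a common total per library. The depth worked out from the spacing of the lowest values was 1275944 to 9984725 reads in sorted cells, so that 1 read was worth 0.784 CPM in the shallowest library and 0.1 CPM in the deepest, and 1 read was worth 0.03 to 0.055 CPM in organoids. At E16.5 Lgr5 read 104 and 125 CPM in HE against 64.8 and 51.6 CPM in KO. In the Cre line it was at 52.8 and 87.5 CPM in the libraries labelled HE and at 89.2 to 109 CPM in those labelled cKO, a count over the whole gene that does not test the deleted part. The study's own gene list for that comparison, matched by the values of 859 genes, names 1 library labelled HE as cKO and 1 labelled cKO as HE. By the X-linked Xist and the Y-linked Ddx3y, the 3 WT cultures were female (Xist 1030 to 3926 CPM) and the 2 KO cultures male (Xist 0.45 to 213 CPM, Ddx3y 55.0 to 73.5 CPM), so that in organoids Lgr5 genotype and sex cannot be told apart. The highest Xist value among KO libraries, 213 CPM, was in culture KO2 with Rspo1 at 100 ng/ml. In the Cre line the libraries labelled HE were male (Ddx3y 47.3 to 73.0 CPM) and those labelled cKO female (Xist 1162 to 1551 CPM), the E18.5 embryos were 1 of each sex, and the adult mice of the DTReGFP line were male.

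The genes lie apart from each other in the genome (GRCm38): Lct at chr1:128284756-128328318, Alpi at chr1:87098002-87101606, Sis at chr3:72888557-72967863, Enpep at chr3:129269175-129332720 and the others each on a chromosome of its own. For 9 of the 10 the RefSeq table (GRCm38.p6) holds a start site. The 250 bases upstream of 4 of them are shown, and these 4 were picked by their pattern in the comparisons that follow. Of 6 comparisons of Rspondin dose, fitted without the culture as a block or TMM scaling, Treh and Alpi were called in the same 5, Sis in 1 and Lct in 0. Capitals mark 4 strings read on either strand: AGATAA, which GATA factors bind, CAAAGTCCA, known from HNF4 sites, GTTAAT, one arm of an HNF1 site, and TTTATNG, known from CDX sites.
Treh (chr9:44672983-44673232, plus strand): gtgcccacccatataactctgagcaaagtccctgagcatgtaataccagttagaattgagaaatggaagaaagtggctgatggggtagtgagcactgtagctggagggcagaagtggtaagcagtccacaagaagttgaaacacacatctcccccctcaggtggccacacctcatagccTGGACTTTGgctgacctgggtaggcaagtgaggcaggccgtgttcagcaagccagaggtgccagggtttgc
Alpi (chr1:87101607-87101856, minus strand): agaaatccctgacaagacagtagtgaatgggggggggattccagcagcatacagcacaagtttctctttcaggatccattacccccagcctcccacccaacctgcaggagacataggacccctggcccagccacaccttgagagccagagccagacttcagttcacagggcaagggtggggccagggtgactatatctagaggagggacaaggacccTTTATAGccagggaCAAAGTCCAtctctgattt
Lct (chr1:128328319-128328568, minus strand): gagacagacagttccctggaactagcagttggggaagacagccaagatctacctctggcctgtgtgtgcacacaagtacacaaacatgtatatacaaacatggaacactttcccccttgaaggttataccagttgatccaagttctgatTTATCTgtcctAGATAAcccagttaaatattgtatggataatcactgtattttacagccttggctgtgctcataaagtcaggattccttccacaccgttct
Sis (chr3:72967864-72968113, minus strand): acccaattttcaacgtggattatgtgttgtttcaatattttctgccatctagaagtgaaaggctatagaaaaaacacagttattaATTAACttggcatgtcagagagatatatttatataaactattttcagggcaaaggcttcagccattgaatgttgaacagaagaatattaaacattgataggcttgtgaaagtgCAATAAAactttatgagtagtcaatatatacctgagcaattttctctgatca

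CAAAGTCCA was present upstream of Treh (positions -71 to -63, minus strand) and of Alpi (positions -19 to -11), and of 0.384% of all 32851 promoter entries at this length. Of the other enzymes lower at the high dose of Rspo1 and Rspo3 in WT, Anpep and Enpep lacked it, and Mep1b had no entry. The bases searched for Anpep (chr7:79848211-79848460) lie inside the annotated gene (chr7:79821803-79861059), and those upstream of its outer end were not searched. AGATAA occurred 2 times upstream of Lct and of Mgam and once upstream of Dpp4, against 9.99% of all entries with at least 1. GTTAAT was found upstream of Sis alone among the 9 (6.43% of entries), and TTTATNG upstream of Sis, Alpi and Dpp4 (9.81%). The matches of Alpi and Dpp4 overlap the string TATAAA, known from TATA boxes (12.4% of entries, in 5 of the 9). That string lies at -33 to -28 (minus strand) in Alpi and at -227 to -222 in Dpp4. Another 4 strings were searched: the whole HNF1 palindrome (0.00913% of entries) had no match, TTTATTG (4.2%), which lies within TTTATNG, matched Sis, TGATAA (7.94%) matched Mep1a, and AGTCCA (11.5%) matched Treh and Alpi within CAAAGTCCA and Treh once more outside it. A match is a description of letters and was not tested as a site.

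The enzymes differed widely in level. Compared per kilobase of exon, Mgam, maltase-glucoamylase, which releases glucose from starch fragments, stood first in 5 of the 7 sorted groups, with a mean of 114 CPM per kilobase in E16.5 HE and 222 CPM per kilobase in adult ileum. Anpep, aminopeptidase N, which clips the first amino acid off peptides, stood first in E18.5 cells (314 CPM per kilobase) and in adult duodenum (82.2 CPM per kilobase). In organoids Alpi, the intestinal alkaline phosphatase, stood first in all 12 groups, with means of 287 to 1148 CPM per kilobase. Alpi has close relatives beside it on chromosome 1, and reads that match several of them cannot be assigned by the counting. Summed CPM of the 10 genes ran from 1342 to 3521 in sorted libraries and from 3193 to 9836 in organoid libraries; sorted cells and organoids were prepared with different kits and were not tested against each other.

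**Figure D1:**
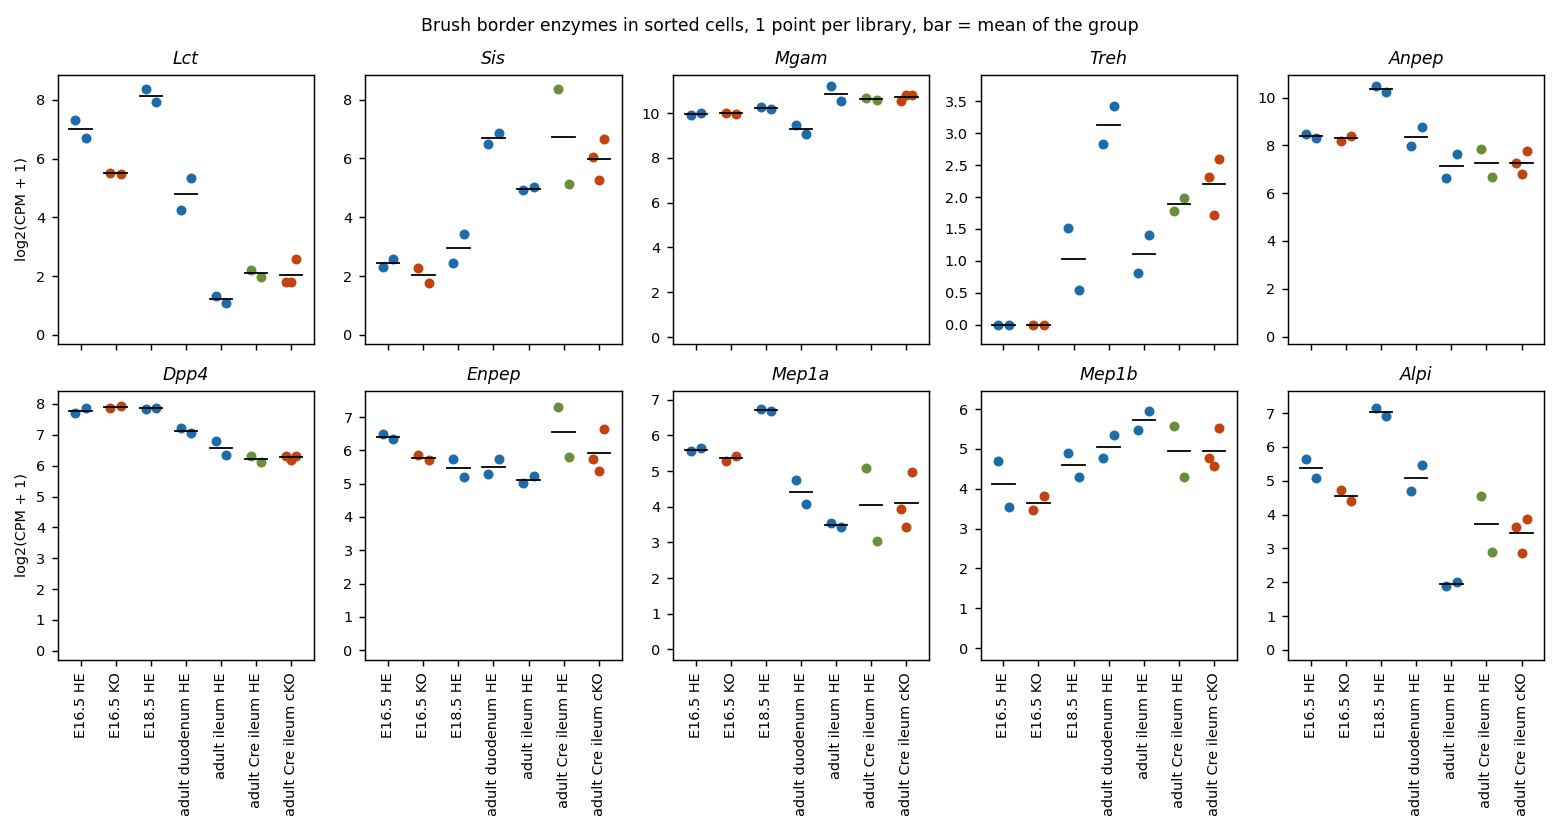
Level of each enzyme in the 15 sorted-cell libraries, as log2(CPM + 1), with 1 point per library and a bar at the group mean; HE groups of the DTReGFP line are blue, the Cre HE group green, and KO or cKO groups orange. Lct, Anpep, Mep1a and Alpi peak at E18.5, Sis is low in all embryonic libraries and high in the adult, and Mgam and Dpp4 vary least.

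Before birth, Lct, Anpep, Mep1a and Alpi were higher and Enpep lower at the later stage, while Sis, Mgam, Mep1b and Dpp4 were not called. Between HE cells at E16.5 and E18.5, limma called 5 of the 9 enzymes tested, 4 higher and 1 lower at E18.5, where 49.6% of all genes tested were called (30.3% higher, 19.4% lower), at a false discovery rate (FDR) of 0.1 and a fold above 1.5. The share of members called was close to that of all genes. The median difference of the 9 was 0.49 on the log2(CPM + 1) scale, against 0.23 over all genes.

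Among disaccharidases, Lct, which codes for lactase, was at 159 and 103 CPM in the E16.5 pools and at 328 and 240 CPM in the E18.5 embryos. The stages did not overlap, and the rise was 1.13 on the log2 scale (SE 0.23, limma adjusted p = 0.00994). Sis, sucrase-isomaltase, which splits sucrose, was at 3.95 and 5.05 CPM and then at 4.4 and 9.9 CPM (0.49, SE 0.42, limma adjusted p = 0.376). Mgam was at 974 and 1016 CPM and then at 1218 and 1156 CPM (0.25, SE 0.09, limma adjusted p = 0.066), below the fold limit. Treh, trehalase, which splits the sugar of fungi and insects, had no read in any of the 4 E16.5 pools, where 3 reads would be 1.15 to 2.35 CPM, and was at 1.85 and 0.45 CPM at E18.5, so it was not tested.

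Of the peptidases, Anpep was at 354 and 316 CPM at E16.5 and at 1409 and 1192 CPM at E18.5, the largest rise among the 9 tested (1.95, SE 0.12, limma adjusted p = 0.000234). Mep1a, the alpha subunit of the metalloprotease meprin, rose from 46.2 and 49.0 CPM to 107 and 101 CPM (1.11, SE 0.12, limma adjusted p = 0.00109). Its partner Mep1b, the beta subunit, ran from 25.1 and 10.6 CPM to 28.9 and 18.6 CPM, with overlapping ranges (0.48, SE 0.41, limma adjusted p = 0.376). Dpp4, dipeptidyl peptidase 4, was nearly level at 208 and 233 CPM against 230 and 235 CPM (0.08, SE 0.10, limma adjusted p = 0.566). Enpep, glutamyl aminopeptidase, which is also made by pericytes, fell from 89.3 and 79.7 CPM to 53.0 and 36.1 CPM (-0.93, SE 0.20, limma adjusted p = 0.0109). Alpi rose from 49.4 and 32.8 CPM to 142 and 119 CPM (1.67, SE 0.21, limma adjusted p = 0.00181).

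Beside these changes the genes of mesenchyme and pericytes fell together: 11 of 11 tested were lower at E18.5, and the summed level of the list went from 1071 and 2027 CPM to 95.4 and 103 CPM, with at most 1 of its 12 genes at 0. Genes of blood went from 1058 and 1176 CPM to 26.4 and 54.7 CPM. The part of these cells in the results was not tested. Fewer cells of a type and less RNA per cell cannot be told apart in such bulk samples. Leaving out either E18.5 embryo left 0 of the 5 calls, and leaving out E16.5 pool 2 left 3. The 5 differences kept their sign.

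Other genes of the enterocyte moved in both directions over the same interval, in which 49.6% of all genes were called (30.3% higher, 19.4% lower). Of 12 other brush border enzymes tested, 4 were higher and 1 lower at E18.5 (median 0.39), led by Naaladl1 (2.12) and Ace (1.44), both peptidases, and by Enpp3 (-1.04). Among 16 genes of absorption 6 were higher and 2 lower (median 0.26), with the peptide transporter Slc15a1 (2.18) and the lipoprotein gene Apob (0.99) highest and the fatty acid binding proteins Fabp1 (-2.09) and Fabp2 (-1.21) lowest. Of 15 genes of brush border structure 7 were higher and 1 lower, and of 16 transcription factors of enterocyte genes 11 were higher, led by Gata4 (2.25) and Elf3 (2.14), and 1, Klf4 (-1.46), was lower.

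From E18.5 to the adult Lct, Anpep, Mep1a, Dpp4 and Alpi were lower and Sis was higher, while Mgam, Treh, Enpep and Mep1b were not called. limma called 6 of 10 enzymes, 5 lower and 1 higher in the 4 adult libraries of duodenum and ileum, where 19% of all genes were called (9.65% lower, 9.36% higher). The median difference of the 10 was -0.59, against -0.04 over all genes. Adult cells came from isolated crypts of duodenum or ileum, and E18.5 cells from whole small intestine. Stage, tissue preparation and gut region thus cannot be told apart here. The 4 adult libraries come from 2 mice, and the fit treats them as separate samples. With the mean of both regions of each mouse in their place 8 enzymes were called (26.2% of all genes), Treh (1.42, limma adjusted p = 0.0213) and Mep1b (0.83, limma adjusted p = 0.0286) being higher as well.

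Lct fell in the adult to 18.1 and 39.5 CPM in duodenum and to 1.5 and 1.15 CPM in ileum. Sis rose to 89.0 and 117 CPM in duodenum and to 29.4 and 31.4 CPM in ileum. For both, no adult library reached the range of the E18.5 embryos (-5.13, SE 1.16, limma adjusted p = 0.0244 for Lct, and 2.89, SE 0.60, limma adjusted p = 0.018 for Sis). Mgam did not differ over the 4 adult libraries (-0.14, SE 0.54, limma adjusted p = 0.891), since its 2 regions lay on either side of E18.5: 716 and 537 CPM in duodenum and 2384 and 1473 CPM in ileum. With duodenum alone as the adult group Mgam was lower (-0.94, limma adjusted p = 0.00155), and with ileum alone it was higher (0.66, limma adjusted p = 0.0688). Treh was at 6.1 and 9.7 CPM in duodenum and 0.75 and 1.65 CPM in ileum, and it was higher than at E18.5 with duodenum alone (2.10, limma adjusted p = 0.00391) and not with all 4 libraries (1.09, SE 0.73, limma adjusted p = 0.352).

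Anpep fell to 98.8 to 429 CPM in the 4 adult libraries (-2.59, SE 0.49, limma adjusted p = 0.0118) and Mep1a to 9.85 to 25.7 CPM (-2.76, SE 0.35, limma adjusted p = 0.00232). Dpp4 fell less, to 79.9 to 147 CPM (-1.01, SE 0.23, limma adjusted p = 0.023). Alpi fell to 24.8 and 43.5 CPM in duodenum and to 2.7 and 3.0 CPM in ileum (-3.52, SE 1.01, limma adjusted p = 0.0533). Enpep (31.1 to 52.3 CPM, -0.17, limma adjusted p = 0.67) and Mep1b (26.2 to 61.1 CPM, 0.79, limma adjusted p = 0.14) were not called.

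In the adult libraries the Paneth list rose to summed levels of 11488 to 32445 CPM from 147 and 153 CPM, with 8 of 8 genes higher, the tuft list was higher in 6 of 6, and the mesenchyme list fell to 3.55 to 8.05 CPM. The part of these cells in the enzyme levels was not tested. Genes of absorption fell with the enzymes, 11 of 16 lower and 1 higher (median -1.84), led by Apoa4 (-5.01) and Apoc3 (-3.67), with Krt20 higher (1.59). Of the 16 transcription factors, 5 were lower, Prdm1 (-4.36) among them, a factor of the fetal and suckling intestine, and Klf4 was higher (1.73). Without either E18.5 embryo only the call of Mep1a was left of the 6, and the 6 differences kept their sign.

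Along the adult gut, 5 of 10 enzymes were called between ileum and duodenum of the same 2 mice, 4 lower and 1 higher in ileum, where 6.88% of all genes were called (4.64% lower, 2.24% higher). The median of the 10 was -1.06, against 0.03 over all genes. The values of both mice stand in the account of the adult given above. Lct was lower in ileum by 3.58 on the log2 scale (SE 0.39, limma adjusted p = 0.00498), Alpi was lower (-3.14, SE 0.31, limma adjusted p = 0.00428), as were Treh (-2.02, SE 0.36, limma adjusted p = 0.0262) and Sis (-1.71, SE 0.19, limma adjusted p = 0.00529). Mgam went the other way (1.59, SE 0.27, limma adjusted p = 0.0222), alone among the disaccharidases in being higher in ileum.

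With the mouse as a block, 8 enzymes were called, 6 lower and 2 higher, where 11.1% of all genes were called. Added were Anpep (251 and 429 CPM in duodenum, 98.8 and 200 CPM in ileum, -1.22, blocked limma adjusted p = 0.000484), Mep1a (25.7 and 15.8 CPM against 10.8 and 9.85 CPM, -0.91, blocked limma adjusted p = 0.0426) and Mep1b, which was higher in ileum (26.2 and 39.8 CPM against 43.5 and 61.1 CPM, 0.66, blocked limma adjusted p = 0.0261). Dpp4 (-0.55, limma adjusted p = 0.213) and Enpep (-0.40, limma adjusted p = 0.427) were called in neither fit. Without a duodenum library of either mouse the unblocked fit called 0 enzymes, and without an ileum library it called 3 (mouse 1) or 2 (mouse 2).

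Of 12 other brush border enzymes 5 were lower in ileum and 1 higher, with Mme (-3.67), the peptidase neprilysin, and Enpp3 (-2.20) lowest and Naaladl1 (3.09) higher. Of 16 genes of absorption 10 were lower (median -1.17), Rbp2 (-4.55) and Apoa4 (-3.49) most, and of 16 transcription factors only Gata4 (-3.57) and Pdx1 (-2.81), both known for the proximal gut, were called. All 6 tuft genes were lower in ileum (196 and 394 CPM in sum, against 1602 and 2756 CPM), and their part in the result was not tested.

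Loss of Lgr5 at E16.5 was met with a lower lactase level. Between the KO and HE pools limma called 1 of 9 enzymes tested, where 0.527% of all genes were called (0.44% lower). Lct read 159 and 103 CPM in HE against 44.9 and 43.7 CPM in KO, with no overlap, and fell by 1.51 on the log2 scale (SE 0.21, limma adjusted p = 0.0386). The litters pair these pools, and with the litter as a block, which called 4.8% of all genes, 3 enzymes were called, all lower in KO: Lct, Alpi (49.4 and 32.8 CPM in HE, 25.3 and 20.2 CPM in KO, -0.80, blocked limma adjusted p = 0.0374) and Enpep (89.3 and 79.7 CPM in HE, 56.7 and 51.2 CPM in KO, -0.64, blocked limma adjusted p = 0.0258). The quasi-likelihood test of edgeR on recovered reads called 2 enzymes, Lct and Enpep (-0.72, edgeR adjusted p = 0.0727), where 2.84% of the genes it tested were called.

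The other 6 tested enzymes were called in none of these fits. Mgam was at 974 and 1016 CPM in HE and 1027 and 996 CPM in KO (0.02, SE 0.13, limma adjusted p = 0.953), Anpep at 354 and 316 CPM and 293 and 339 CPM (-0.08, SE 0.14, limma adjusted p = 0.828), and Dpp4 at 208 and 233 CPM and 231 and 242 CPM (0.11, SE 0.14, limma adjusted p = 0.772). The differences of Mep1a (-0.25), Mep1b (-0.48) and Sis (-0.43) had limma adjusted p values of 0.589, 0.624 and 0.717. Treh had no read in any of these pools.

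Several genes of absorption were lower in KO as well: 6 of 16 were called, all lower (median -0.99, against 0.08 over all genes), with Apoc3 (-2.08) and Rbp2 (-1.83) lowest. Of 11 other brush border enzymes tested 3 were lower, Gda (-1.69) and Mme (-1.40) most, and none of the 16 transcription factors was called. Sums of the mesenchyme list were 1071 and 2027 CPM in HE and 223 and 612 CPM in KO, with 2 of 11 genes lower, and those of the blood list 1058 and 1176 CPM in HE and 308 and 491 CPM in KO, with 3 of 5 lower. KO pool 1 was male by Xist (1.55 CPM) and the other 3 pools were mixed. The part of these differences in the enzyme levels was not tested. The call of Lct was lost when any 1 of the 4 pools was left out (-1.20 to -1.82, limma adjusted p = 0.327 to 0.896) and with a pseudocount of 0.1 or without the filter.

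In adult ileum of the Cre line no enzyme was called by limma between the groups as labelled, and none had an unadjusted p under 0.05, where 0.0504% of all genes were called. Lct was at 3.65 and 2.95 CPM in the libraries labelled HE and at 2.45 to 4.95 CPM in those labelled cKO. Library 1 labelled HE, the one that the study's list names cKO, stood well above the other 4 for Sis (325 CPM, the others 33.8 to 99.9 CPM), Enpep (155 CPM, the others 40.2 to 98.4 CPM) and Alpi (22.4 CPM, the others 6.3 to 13.7 CPM). Mgam was at 1491 to 1798 CPM in all 5. With the genotypes of the study's own list 3 enzymes were higher in cKO, where 3.92% of all genes were called (2.54% higher): Anpep (0.90, limma adjusted p = 0.0458), Alpi (1.13, limma adjusted p = 0.0874) and Mep1a (1.44, limma adjusted p = 0.0726). Which of the 2 assignments is right was not tested.

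**Figure D2:**
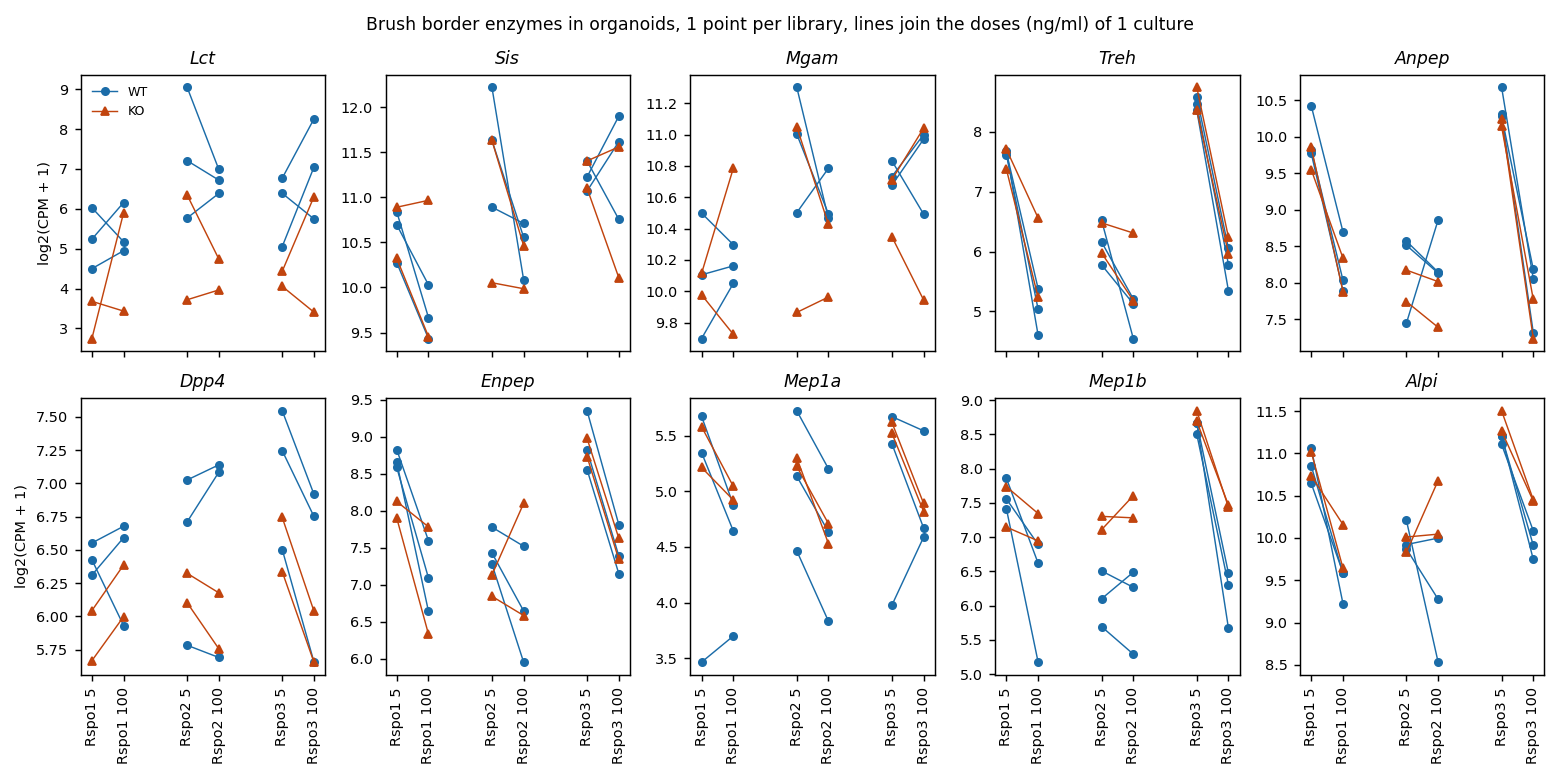
Level of each enzyme in the 30 organoid libraries, as log2(CPM + 1), for Rspo1, Rspo2 and Rspo3 at 5 and 100 ng/ml; lines join the doses of 1 culture, blue circles are the 3 WT and orange triangles the 2 KO cultures, and each panel has its own axis, which does not start at 0. Treh, Anpep, Enpep, Mep1b and Alpi drop from 5 to 100 ng/ml with Rspo1 and Rspo3, and the lines of Lct and Mgam cross.

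In WT organoids 5 enzymes were lower at the high dose of Rspo1 and of Rspo3. Lct, Mgam, Mep1a and Dpp4 were not called for any ligand in the fit without the culture as a block or TMM scaling. In WT cultures limma called 5 of 10 enzymes with Rspo1 at an FDR of 0.05, all lower at 100 than at 5 ng/ml, where 53.4% of all genes were called (12.5% lower). It called the same 5, Treh, Anpep, Enpep, Mep1b and Alpi, with Rspo3 (51.4% of all genes, 13.7% lower), and 3 with Rspo2, Sis, Treh and Alpi (33.4% of all genes, 9.12% lower). No enzyme was called higher at 100 ng/ml, while most of the other genes called were higher there. The median of the 10 enzymes was -1.14, -0.60 and -0.96 with Rspo1, Rspo2 and Rspo3, against 0.28, 0.17 and 0.24 over all genes. Scaling by TMM lowered each dose difference in WT by a further 0.23 to 0.34 and changed no direction among these calls. It added Sis with Rspo1 (-1.24, limma adjusted p = 0.033), Enpep with Rspo2 (-1.03, limma adjusted p = 0.0438) and Dpp4 with Rspo3 (-0.92, limma adjusted p = 0.0431).

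Trehalase gave the steadiest response. With Rspo1 in WT cultures 10, 5 and 30, Treh was at 196, 201 and 204 CPM at 5 ng/ml and at 31.9, 40.6 and 23.3 CPM at 100 ng/ml. With Rspo3 it was at 351, 329 and 383 CPM and at 54.1, 39.6 and 65.4 CPM, and with Rspo2 at 70.5, 53.9 and 91.0 CPM and at 36.0, 34.0 and 22.4 CPM. The doses did not overlap for any ligand, and the falls were 2.65, 2.74 and 1.19 on the log2 scale (SE 0.30 each, limma adjusted p = 5.85e-07, 1.44e-07 and 0.00499). In KO cultures 7 and 2, Treh fell with Rspo1 from 165 and 208 CPM to 36.6 and 93.4 CPM (-1.64, SE 0.37, limma adjusted p = 0.00222). With Rspo3 it fell from 329 and 429 CPM to 61.5 and 74.4 CPM (-2.45, SE 0.37, limma adjusted p = 1.48e-05). With Rspo2 it was at 62.0 and 88.2 CPM at 5 ng/ml and at 35.3 and 78.3 CPM at 100 ng/ml (-0.48, limma adjusted p = 0.89).

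Anpep in WT was at 874, 1372 and 902 CPM with Rspo1 at 5 ng/ml and at 237, 414 and 261 CPM at 100 ng/ml (-1.80, SE 0.30, limma adjusted p = 4.37e-05). The gap was wider with Rspo3, from 1639, 1243 and 1266 CPM to 265, 290 and 158 CPM (-2.57, SE 0.30, limma adjusted p = 3.43e-07). With Rspo2 the 3 cultures disagreed, from 379, 364 and 173 CPM at 5 ng/ml to 282, 280 and 464 CPM (0.20, limma adjusted p = 0.631). In KO cultures Anpep fell from 924 and 748 CPM to 235 and 323 CPM with Rspo1 (-1.59, limma adjusted p = 0.00284) and from 1208 and 1128 CPM to 150 and 217 CPM with Rspo3 (-2.69, limma adjusted p = 5.08e-06).

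Mep1b in WT fell with Rspo3 from 362 to 407 CPM at 5 ng/ml to 49.9 to 87.8 CPM at 100 ng/ml (-2.47, SE 0.34, limma adjusted p = 2.49e-06) and with Rspo1 from 169 to 231 CPM to 35.1 to 118 CPM (-1.38, SE 0.34, limma adjusted p = 0.00165). Its partner Mep1a was between 10.1 and 51.8 CPM in all 18 WT libraries and was not called for any ligand, the largest difference being -0.55. Enpep in WT fell from 384 to 454 CPM to 98.8 to 193 CPM with Rspo1 (-1.58, SE 0.38, limma adjusted p = 0.00155) and from 376 to 654 CPM to 141 to 224 CPM with Rspo3 (-1.46, SE 0.38, limma adjusted p = 0.00288). Dpp4 stayed between 49.5 and 186 CPM and was not called without the block or TMM scaling, its differences being -0.03, 0.13 and -0.66.

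Alpi, the phosphatase, was at 1847, 1600 and 2139 CPM with Rspo1 at 5 ng/ml and at 766, 770 and 597 CPM at 100 ng/ml in WT (-1.39, SE 0.24, limma adjusted p = 7.24e-05). With Rspo3 it fell from 2363, 2206 and 2355 CPM to 858, 1085 and 963 CPM (-1.26, SE 0.24, limma adjusted p = 0.000175). With Rspo2 it went from 936, 969 and 1183 CPM to 619, 1022 and 369 CPM, rising in culture 5 (-0.73, SE 0.24, limma adjusted p = 0.0256).

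Among the other disaccharidases no response to Rspo1 or Rspo3 was called in the fit without the culture as a block or TMM scaling. Lct in WT was at 21.6, 64.3 and 36.8 CPM with Rspo1 at 5 ng/ml and at 29.9, 35.0 and 70.5 CPM at 100 ng/ml, so that 2 of 3 cultures went up (0.17, SE 0.85, limma adjusted p = 0.88). With Rspo3 it was at 32.2, 82.8 and 108 CPM and then at 131, 52.7 and 305 CPM (0.95, SE 0.85, limma adjusted p = 0.368), and with Rspo2 at 147, 53.5 and 531 CPM and then at 105, 82.6 and 126 CPM (-0.65, SE 0.85, limma adjusted p = 0.586). The SE of Lct was the largest among the 10, and its cultures lay further apart than its doses. Mgam moved by at most 0.35 on the log2 scale in WT and stayed between 830 and 2526 CPM.

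Sis in WT was lower at 100 ng/ml in 3 of 3 cultures with Rspo1 and with Rspo2. With Rspo2 it was at 3171, 1897 and 4772 CPM at 5 ng/ml and at 1505, 1674 and 1086 CPM at 100 ng/ml (-1.13, SE 0.43, limma adjusted p = 0.0479). With Rspo1 the values were 1238, 1831 and 1656 CPM and 690, 812 and 1044 CPM (-0.89, SE 0.43, limma adjusted p = 0.0856). Sis with Rspo1 was called with the culture as a block (blocked limma adjusted p = 0.0158) and with TMM scaling (limma adjusted p = 0.033). With Rspo3 it was higher at 100 ng/ml in 2 of 3 cultures (0.19, limma adjusted p = 0.735).

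The culture pairs the libraries of the 2 doses, and the block kept each of the 13 calls in WT, where it called 64.1%, 47.5% and 61.8% of all genes with Rspo1, Rspo2 and Rspo3. It added, beside Sis with Rspo1, Enpep with Rspo2 (-0.79, blocked limma adjusted p = 0.00823) and Dpp4 with Rspo3 (-0.66, blocked limma adjusted p = 0.00266). The calls with Rspo2 did not all hold when a culture was left out. Without culture 30 none of the 3 was left (Sis -0.63, Treh -0.80, Alpi -0.26), and without culture 10 only Treh was. With Rspo2, Treh and Sis were lower at 100 ng/ml in 3 of 3 WT cultures and Alpi in 2 of 3.

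In KO cultures limma called 3 enzymes with Rspo1, Treh, Anpep and Alpi, where 29.8% of all genes were called (7.86% lower), and 5 with Rspo3, the same as in WT, where 44.5% were called (11.8% lower). With Rspo2 no enzyme was called and none had an unadjusted p under 0.05, where 0.115% of all genes were called. With Rspo2 at 5 ng/ml culture KO2 had Lgr5 at 90.5 CPM and Olfm4, a stem cell marker, at 1201 CPM, levels of the 100 ng/ml libraries, while culture KO7 had 20.6 and 376 CPM. Without culture KO7 the 3 calls with Rspo1 were lost (Treh -1.15, Anpep -1.21, Alpi -0.58), and without either KO culture only Treh and Anpep were left of the 5 with Rspo3. The block, which called 43.8% of all genes with Rspo1 and 55.1% with Rspo3, added Enpep with Rspo1 (-0.96, blocked limma adjusted p = 0.00956) and Mep1a (-0.72, blocked limma adjusted p = 0.0398) and Dpp4 (-0.69, blocked limma adjusted p = 0.00911) with Rspo3.

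The dose response was not shown to depend on Lgr5. The interaction of dose and genotype was called for no enzyme with any ligand by limma; 1 enzyme with each ligand had an unadjusted p under 0.05, with 0%, 0.439% and 0% of all genes called for Rspo1, Rspo2 and Rspo3. The difference of the dose effects (KO minus WT) was 1.17 for Alpi (SE 0.39, limma adjusted p = 0.192, blocked 0.0846) and 1.14 for Enpep (SE 0.60, limma adjusted p = 0.444, blocked 0.0786) with Rspo2. For Mep1b it was 1.08 with Rspo1 and 1.15 with Rspo3 (SE 0.53 each), and for Treh 1.00 with Rspo1 (SE 0.48).

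Other genes of enterocytes were lower at the high dose as well. With Rspo3 in WT 11 of 13 other brush border enzymes were lower at 100 ng/ml (median -2.64), led by the peptidases Dpep1 (-4.99) and Ace (-4.98), with Rspo1 10 of 13 were (median -1.98), and with Rspo2 4 of 13. In KO cultures 3, 0 and 10 of the 13 were lower with Rspo1, Rspo2 and Rspo3. Of 16 genes of absorption 13 were lower with Rspo1 and 13 with Rspo3, Slc15a1 (-3.08 and -4.61) and Krt20 (-2.69 and -3.83) most. Of 15 genes of brush border structure 10 were lower with each, Cdhr2 (-1.18 and -1.79) and Cdhr5 (-1.17 and -1.18) most. Among 16 transcription factors 6 and 4 were lower, Maf (-1.35 and -1.42) among them. With Rspo1 1 of these factors was higher and with Rspo3 2 were. All 12 stem cell genes were higher at 100 ng/ml with each ligand in WT. Of 8 Paneth cell genes 7, 8 and 6 were higher with Rspo1, Rspo2 and Rspo3 in WT. The summed level of that list in WT went from 173 to 413 CPM up to 834 to 1546 CPM with Rspo1, from 376 to 441 CPM up to 1150 to 1922 CPM with Rspo2 and from 100.1 to 162 CPM up to 505 to 719 CPM with Rspo3. In KO 8, 0 and 7 of the 8 were higher, and with Rspo2 the sums were 1045 and 1050 CPM at 5 ng/ml and 743 and 952 CPM at 100 ng/ml. At 100 ng/ml none of the 8 genes was at 0 in any library. The part of these cells in the enzyme levels was not tested.

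**Figure D3:**
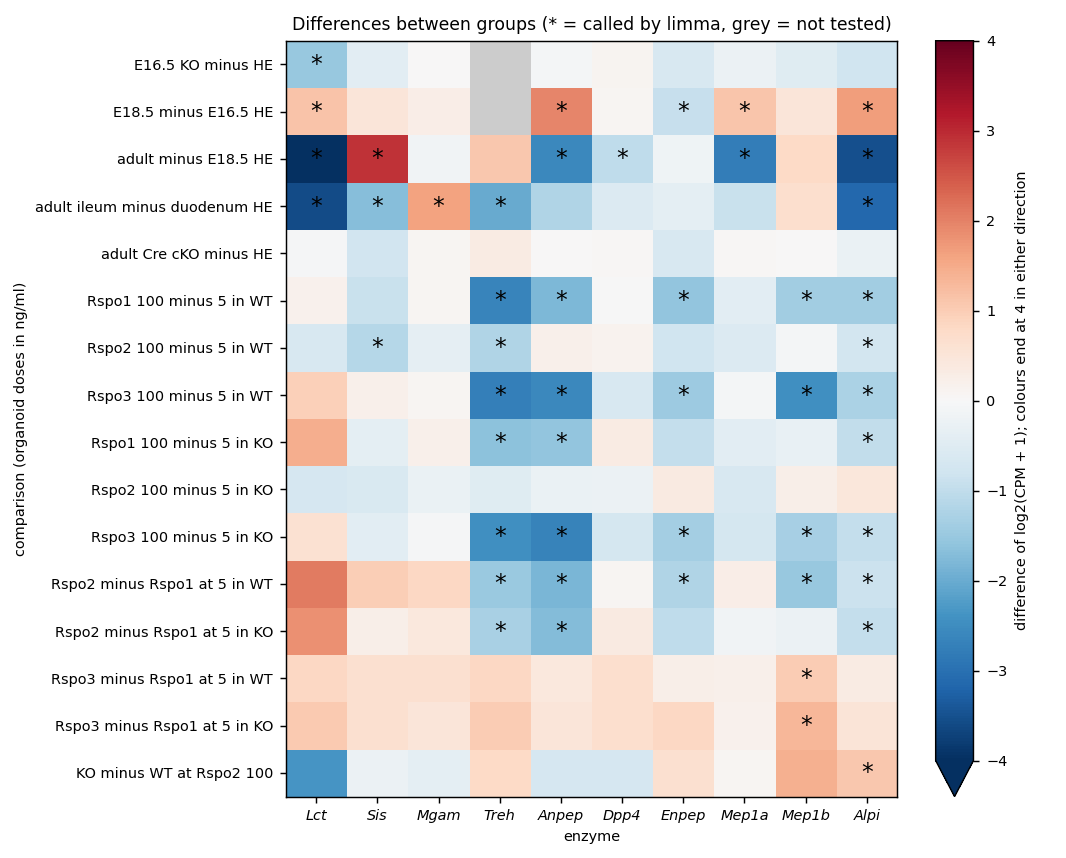
Difference of log2(CPM + 1) for each enzyme (columns) in 16 comparisons (rows, named as first group minus second), red for higher and blue for lower, with a star where limma called it. In the organoid dose rows, stars stand under Treh, Anpep, Enpep, Mep1b and Alpi with Rspo3 in both genotypes and with Rspo1 in WT. They stand under Treh, Anpep and Alpi with Rspo1 in KO, and under Sis, Treh and Alpi with Rspo2 in WT. Lct has no star in any organoid row.

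The ligands differed at 5 ng/ml. In WT 5 enzymes were lower with Rspo2 than with Rspo1, Treh (-1.50), Anpep (-1.83), Enpep (-1.19), Mep1b (-1.51) and Alpi (-0.85), with limma adjusted p from 0.000361 to 0.0281, where 22.8% of all genes were called (6.35% lower). With the culture as a block 8 were called (35.9% of all genes), the 3 added ones being higher with Rspo2: Lct (2.09, blocked limma adjusted p = 0.0155), Sis (0.98, blocked limma adjusted p = 0.0175) and Mgam (0.84, blocked limma adjusted p = 0.00625). In KO 3 were lower with Rspo2, Treh (-1.31), Anpep (-1.74) and Alpi (-0.96), where 17.9% of all genes were called (4.36% lower). The count in WT was 2 without culture 10 (Anpep and Mep1b) and 8 without either KO culture, since the fit shares its spread, and in KO it was 1 without culture 10 (Anpep) and 0 without KO7.

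Between Rspo3 and Rspo1 at 5 ng/ml, Mep1b alone was called, higher with Rspo3 in WT (1.01, limma adjusted p = 0.0441; 16.4% of all genes called, 3.69% higher) and in KO (1.33, limma adjusted p = 0.0299; 16.2% of all genes called, 3.13% higher). In WT it was at 187, 231 and 169 CPM with Rspo1 and at 407, 362 and 406 CPM with Rspo3, and in KO at 141 and 212 CPM and at 412 and 458 CPM. The block called 4 in each genotype (29.1% of all genes in WT, 26.3% in KO), adding Treh and Dpp4 in both, Mgam in WT (0.65, blocked limma adjusted p = 0.0341) and Enpep in KO (0.84, blocked limma adjusted p = 0.0314). Without culture 10 none was called in WT, and without either KO culture 2 were. In KO none was called without either KO culture, and without the filter on low values none was called in either genotype.

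At 100 ng/ml no enzyme was called between ligands in either genotype. In WT 0 had an unadjusted p under 0.05 for Rspo2 against Rspo1 (0.204% of all genes called) and 3 for Rspo3 against Rspo1 (0.00523%), and in KO 0 in both (0.0105% and 0%). With the block (15.2% of all genes called) Sis (1.71, blocked limma adjusted p = 0.00676) and Treh (0.72, blocked limma adjusted p = 0.0424) were higher with Rspo3 than with Rspo1 in WT, and without either KO culture Sis was called in the fit without the block (limma adjusted p = 0.0327 and 0.033). The lowest dose of one ligand could lie near the highest of another: in cultures WT10, WT5, WT30, KO7 and KO2, Lct was at 147, 53.5, 531, 80.7 and 12.2 CPM with Rspo2 at 5 ng/ml and at 131, 52.7, 305, 78.0 and 9.6 CPM with Rspo3 at 100 ng/ml. Since both ligand and dose differ there, no test was made.

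Between KO and WT cultures under the same ligand and dose, 1 call was made. Alpi was higher in KO with Rspo2 at 100 ng/ml, at 1056 and 1638 CPM against 619, 1022 and 369 CPM (1.09, SE 0.27, limma adjusted p = 0.0498), where 1.2% of all genes were called (0.763% higher). It was lost without culture WT10, WT30, KO7 or KO2 (0.72 to 1.41, limma adjusted p = 0.086 to 0.363). The difference was 1.09 to 1.14 with another pseudocount, either other filter or TMM scaling, past the threshold in none of them (limma adjusted p = 0.0583 to 0.0699), and TMM scaling called Mep1b higher instead (1.47, limma adjusted p = 0.0409). In the other 5 conditions limma called no enzyme, where 0.214% (Rspo1, 100 ng/ml), 0.125% (Rspo1, 5 ng/ml), 4.54% (Rspo2, 5 ng/ml), 0.868% (Rspo3, 100 ng/ml) and 0.193% (Rspo3, 5 ng/ml) of all genes were called, and 0 to 2 enzymes had an unadjusted p under 0.05. Leaving out 1 culture made calls in 4 conditions: without KO7, Treh was higher with Rspo1 at 100 ng/ml (1.55) and Lct (-3.63), Sis (-1.53) and Mgam (-1.07) were lower with Rspo2 at 5 ng/ml. Without WT5, Dpp4 was lower with Rspo2 (-1.14) and Rspo3 (-0.99) at 100 ng/ml, and without WT30, Mep1b was higher in both (1.07 and 1.06). Lct was lower on average in KO in all 6 conditions, by 0.76 to 2.35 on the log2 scale, with limma adjusted p from 0.154 to 1. The 2 KO cultures were themselves far apart, at 5.7 to 80.7 CPM in KO7 and 9.6 to 15.6 CPM in KO2, and the WT cultures spanned 21.6 to 531 CPM.

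**Figure D4:**
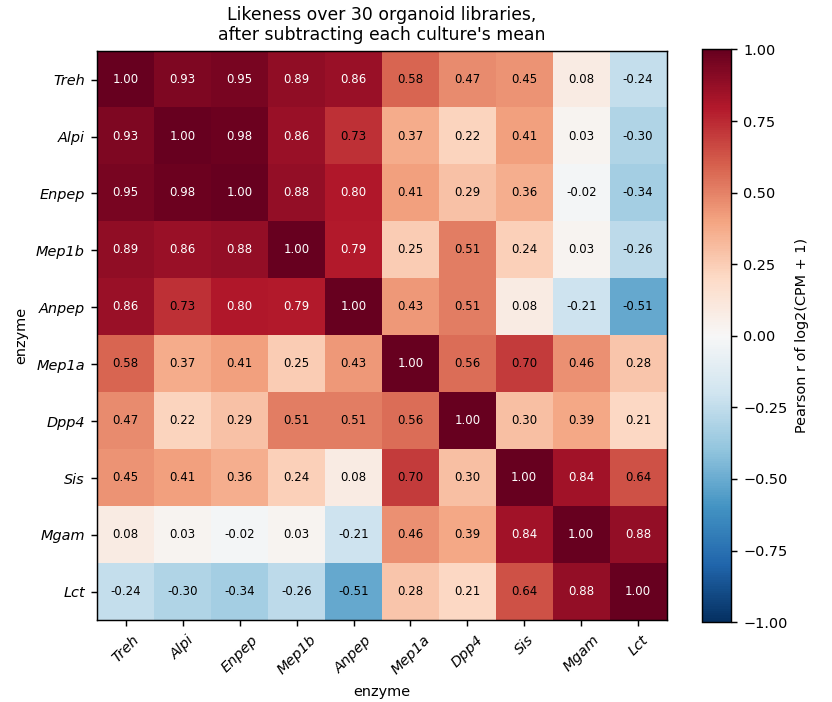
Pearson correlation of log2(CPM + 1) between the enzymes over the 30 organoid libraries after the mean of each of the 5 cultures was subtracted, red for positive and blue for negative. Treh, Alpi, Enpep, Mep1b and Anpep form a block of values from 0.73 to 0.98, and Sis, Mgam and Lct a second from 0.64 to 0.88.

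After the mean of each culture was subtracted, Treh correlated at 0.93 with Alpi, 0.95 with Enpep, 0.89 with Mep1b and 0.86 with Anpep over the 30 libraries. Mgam correlated at 0.88 with Lct and 0.84 with Sis, and at 0.08 with Treh. Lct correlated at -0.51 with Anpep and -0.24 with Treh. These values describe libraries that share 5 cultures and 6 conditions each, and no test was made of them. Sis correlated at 0.45 with Treh. Mep1a correlated at 0.70 with Sis and 0.58 with Treh, and Dpp4 at 0.51 with Anpep and 0.39 with Mgam.

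Over the means of the 12 organoid groups, among 10625 genes with a mean of at least 10 CPM, the genes most like Lct were Gm6277 (Pearson r = 0.943), Gm21974 (0.928), Cables1 (0.927), Vkorc1 (0.921) and Sirt2 (0.904). The group means of Vkorc1, an enzyme of vitamin K recycling, ran from 30.1 to 64.8 CPM. Among those most like Sis were Pklr (0.969), Gm13394 (0.957), Hcn3 (0.951) and Selenop (0.951). Pklr, the liver-type pyruvate kinase, ran from 465 to 1276 CPM in group means.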

How the data were processed

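RNA sequencing of 15 sorted-cell libraries (Ovation SoLo) and 30 organoid libraries (NEBNext with rRNA depletion) was processed by the authors with Trimmomatic 0.36, STAR 2.5.3a and HTSeq 0.9.1 on GRCm38. The deposited values are CPM per gene, rounded up to the next 0.05. The members and gene lists were chosen with earlier results of these data known.

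Values were tested as log2(CPM + 1) with limma 3.58.1 (trend, R 4.3.3) and Benjamini-Hochberg adjustment over all genes tested. Fold changes on this scale understate the change of low genes. Sorted cells were fitted per comparison, keeping genes that reached 1 CPM in a number of libraries equal to the smaller group, at an FDR of 0.1 and a fold above 1.5. Organoids were fitted together over 12 groups, with genes of at least 1 CPM in 2 libraries, at an FDR of 0.05. Groups followed the sample labels. E18.5 embryos, adult mice and cultures were 1 animal each. In sorted cells p-values rest on the spread between the 2 to 4 libraries of a group. The 4 adult libraries set against E18.5 came from 2 mice. In organoids they rest on a spread pooled over the 12 groups, which without the block includes the differences between cultures. For the 4 E16.5 pools whole reads were recovered from the value steps and tested with edgeR. On simulated data with 200 genes changed by 2 on the log2 scale, 92.5% of them were recovered for E16.5 KO against HE. The share was 98.5% for ileum against duodenum and 100% for the Rspo3 dose in WT. Unchanged genes called there numbered 18, 30 and 7. Whether these shares hold for the measured libraries was not tested.

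Named genes were the 10 members, at most 2 per direction with the largest change among called genes of each list, the 5 genes most like Lct and Sis among those with a mean of at least 10 CPM, and Lgr5. Some genes that this rule takes are not reported here. Marker genes and sex genes are given as checks. Pairs came from the litter at E16.5 (correlation of deviations 0.0308), the mouse in the adult (0.321) and the culture in organoids (medians 0.368 to 0.549). Other groups share only a replicate number. Alternatives were TMM scaling, a pseudocount of 0.1, no filter, a mean of at least 10 CPM, a replicate block, the adult regions alone, the study's own Cre genotypes, an FDR of 0.05 with no fold limit, and leaving out each library or culture. Promoters came from RefSeq (GRCm38.p6).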

Additional observations from a re-analysis of the deposited data

Results flagged for a closer look

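In KO organoids the dose response of 2 enzymes differed in sign between ligands. The dose difference (100 minus 5 ng/ml) of Alpi was 1.42 higher with Rspo2 than with Rspo1 on the log2(CPM + 1) scale, and differed by -1.38 between Rspo3 and Rspo2. With Rspo2 Alpi went from 1031 to 1056 CPM in culture KO7 (0.03, nearly level) and from 909 to 1638 CPM in KO2 (0.85), and it was lower at 100 ng/ml in 2 of 2 cultures with Rspo1 and with Rspo3. That of Dpp4 differed by -0.58 between Rspo2 and Rspo1 and by -1.03 between Rspo3 and Rspo1, with Dpp4 higher at 100 ng/ml in 2 of 2 cultures with Rspo1 and lower in 2 of 2 with Rspo2 (-0.15 and -0.35) and with Rspo3. These differences between ligands were not tested, and those that involve the same ligand share its libraries. In culture KO2 with Rspo2 at 5 ng/ml, Lgr5 stood at 90.5 CPM, near its levels at 100 ng/ml, and the part of that library in the Alpi and Dpp4 differences was not tested.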

How the results depend on the processing

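The number of enzymes called depended on the setting in several comparisons; the cause was not tested. At E16.5 (KO against HE, 1 called) it was 0 with a pseudocount of 0.1, 0 without the filter, 2 by edgeR, 3 with the replicate block and 0 to 0 without 1 pool. Between ileum and duodenum (5) it was 3 without the filter, 8 with the block and 0 to 3 without 1 library. It was 0 to 4 without 1 library for E18.5 against E16.5 (5) and 1 to 7 for adult against E18.5 (6). With the study's own Cre genotypes it was 3 in place of 0, and the difference of Alpi turned to 1.13. With ileum alone as the adult group the difference of Mgam from E18.5 turned to 0.66.

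For the dose comparisons, leaving out 1 culture gave 0 to 3 calls with Rspo2 in WT (3), 0 to 4 with Rspo1 in KO (3), 2 to 6 with Rspo3 in KO (5) and 5 to 6 with Rspo1 or Rspo3 in WT (5 each). TMM scaling called 6 with Rspo1, 4 with Rspo2 and 6 with Rspo3 in WT. For KO against WT it gave 0 to 1 with Rspo1 at 100 ng/ml, 0 to 2 with Rspo2 at 100 ng/ml, 0 to 3 with Rspo2 at 5 ng/ml and 0 to 1 with Rspo3 at 100 ng/ml. The 1 call at Rspo2 100 ng/ml became 0 with a pseudocount of 0.1, without the filter and with the stricter filter. For Rspo2 against Rspo1 at 5 ng/ml the block called 8 in WT, and leaving out 1 culture gave 2 to 8 in WT and 0 to 3 in KO. For Rspo3 against Rspo1 at 100 ng/ml in WT, TMM scaling called 1, the block 2, and leaving out 1 culture 0 to 1. At 5 ng/ml, TMM scaling called 2, the stricter filter 2, no filter 0 and the block 4 in each genotype, and leaving out 1 culture gave 0 to 2 in WT and 0 to 1 in KO.

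The block ended no call of an enzyme. It was also fitted where groups share only a replicate number, which is no true pair. No paired analysis was possible because KO and WT cultures share no number. The edgeR alternative was not run for the other sorted comparisons, since whole reads were recovered for the E16.5 pools only. With 2 or 3 samples per group, and 3 reads worth up to 2.35 CPM in the shallowest pool, low levels such as Treh at E16.5 were not resolved.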
